A study of Homo sapiens with 6 samples.

Results

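An autophagosome grows from the phagophore, a cup-shaped membrane that forms on a part of the endoplasmic reticulum (ER) called the omegasome. The lipid phosphatidylinositol 3-phosphate (PI3P) marks this site and recruits effector proteins, a lipid transfer protein of the ATG2 kind then bridges the ER and the phagophore, and scramblases (proteins that move lipids between the leaflets of a membrane) let the delivered lipids spread on either side of that bridge. The 8 genes described here cover these steps. They are the PI3P effectors ZFYVE1, WIPI1 and WIPI2, the lipid transfer genes ATG2A and ATG2B with the scramblase gene ATG9A, and the ER scramblase genes VMP1 and TMEM41B. They were chosen by gene name for these roles, out of 31762 genes in the deposited count table, and each name had 1 row there. The choice was made with earlier results of these data known.

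RNA sequencing was performed on H460 cells, a human lung cancer cell line that the labels give as wild type and as a carcinoma. The fluoxetine group was 3 libraries of cells treated with 20 μM fluoxetine, a selective serotonin reuptake inhibitor, for 24 h. The control group was 3 libraries of cells labelled as control, without word of what they received. The labels do not say whether the libraries of a group came from separate cultures, so the p-values measure only the spread between these libraries, which may be technical.

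Between 16157507 and 27823667 reads were counted on genes in a library, and every fluoxetine library held fewer than every control library. Pairs of libraries of the same group differed by more than the sampling noise, so all 6 were kept as separate samples. Control replicates 1 and 3 lay furthest apart within a group, with a chi-square of 21.7 per degree of freedom. Control replicate 2 and fluoxetine replicate 2, from different groups, stood at 20.7. This measure grows with the number of reads. Of 6 epithelial markers, KRT8, KRT18 and KRT19 were above 1 CPM (the count scaled to a common library size) in every library, EPCAM lay between 0.216 and 0.573 CPM, and CDH1 had 2 counts over all libraries together. The summed level of the epithelial markers lay between 3058 and 4028 CPM in the control libraries and between 2689 and 3264 CPM in the fluoxetine libraries, and KRT18 fell (log2 fold change -0.72, with 0.00162 as the adjusted p of edgeR). The summed levels of the endothelial, leukocyte and erythroid markers stayed at or below 0.182 CPM in every library, and those of the fibroblast markers lay between 7.75 and 10.4 CPM, nearly all from COL1A1 and PDGFRB. The markers CDH5, CD3E, CD68 and HBB were not analysed here. The part of the keratin difference in the results that follow was not tested.

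Fluoxetine treatment went with higher RNA levels of 4 of the 8 genes, namely ZFYVE1, WIPI1, ATG2B and TMEM41B, with fold changes between 1.45 and 2.17. WIPI2, ATG2A, ATG9A and VMP1 did not pass the test, and 0 of the 8 genes fell. Each of the PI3P effectors, the lipid transfer genes and the ER scramblases thus held at least 1 gene that rose and 1 that did not pass. The call rule was an adjusted p-value under 0.05 in the quasi-likelihood test of edgeR, with adjustment over the 15646 genes tested, and all 8 genes were among them. Of all genes tested, 7.76% rose and 5.32% fell by this rule. At a fold change of at least 2 as well, 1 of the 8 genes rose, ZFYVE1, against 1.25% of all genes tested. The median log2 fold change was 0.38 over the 8 genes and 0.03 over all genes tested. With DESeq2 or limma-voom, the same 4 genes were called. In bulk RNA, a change in the RNA of each cell and a change in the share of cells that hold it cannot be told apart.

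**Figure D1:**
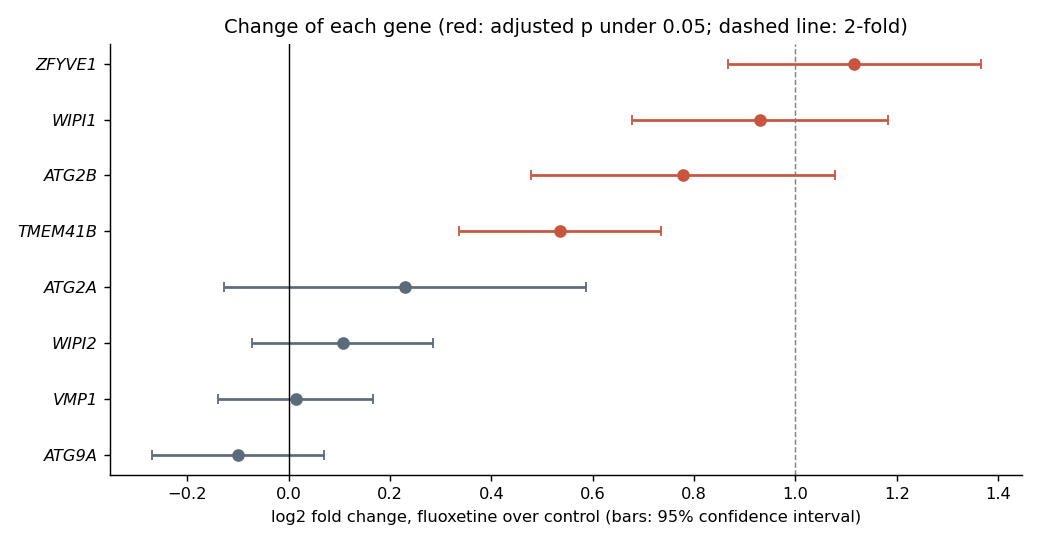
Log2 fold change of fluoxetine over control (horizontal axis) for each of the 8 genes, with the 95% confidence interval of the edgeR fit. The intervals of ZFYVE1, WIPI1, ATG2B and TMEM41B, in red, lie above 0, and that of each other gene includes 0.

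Among the PI3P effectors, ZFYVE1 showed the largest change of the 8 genes. ZFYVE1 (ENSG00000165861, GRCh38 chromosome 14, 72969451 to 73027212, minus strand) encodes DFCP1, a protein with FYVE domains that is used as the marker of omegasomes. Raw counts of ZFYVE1 were 188, 194 and 267 for the control libraries (in the order of replicates 1, 2 and 3, here and for the genes that follow) against 343, 330 and 357 for the treated libraries. After normalization its level was 8.53, 10.1 and 9.62 CPM in the control libraries and 20.8, 19.6 and 20.8 CPM in the fluoxetine libraries. The groups were far apart, with 9.52 CPM between the highest control and the lowest fluoxetine library. ZFYVE1 thus rose by 1.12 on the log2 scale (standard error 0.11, 95% confidence interval 0.87 to 1.37, adjusted p = 1.97e-04 from edgeR). By p-value it stood 96th among the genes tested.

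WIPI1 rose by nearly as much, from a mean of 14.3 ± 1.21 CPM (SD, n = 3) to 27.3 ± 2.66 CPM (SD, n = 3). WIPI1 (ENSG00000070540, chromosome 17, 68420948 to 68457513, minus strand) encodes a WD-repeat protein that binds PI3P on the phagophore. Its levels were 13.3, 15.7 and 14.0 CPM in the control libraries and 24.2, 28.9 and 28.8 CPM in the fluoxetine libraries. Fluoxetine replicate 1 was the lowest treated library and still lay 8.54 CPM above the highest control library. Its log2 fold change came to 0.93 (standard error 0.11, 95% confidence interval 0.68 to 1.18, adjusted p = 7.73e-04 from edgeR). Exons of WIPI1 share 828 bases, 24.3% of its exonic length, with ARSG on the other strand. ARSG was counted between 76 and 141 times per library with a log2 change of 0.29 (edgeR, adjusted p = 0.267), and whether the counting used strand is not given in the sources used here.

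WIPI2 encodes the close relative of WIPI1 that brings ATG16L1, and with it the lipidation machinery of LC3, to the phagophore. WIPI2 (ENSG00000157954, chromosome 7, 5190188 to 5233826, plus strand) had levels of 48.9, 49.8 and 45.6 CPM in the control libraries and 51.5, 53.4 and 50.5 CPM in the fluoxetine libraries. The groups did not overlap, but only 0.679 CPM lay between them. WIPI2 had a log2 fold change of 0.11 (95% confidence interval -0.07 to 0.29, adjusted p = 0.434 from edgeR), so changes beyond 1.22-fold upward lie outside the interval.

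**Figure D2:**
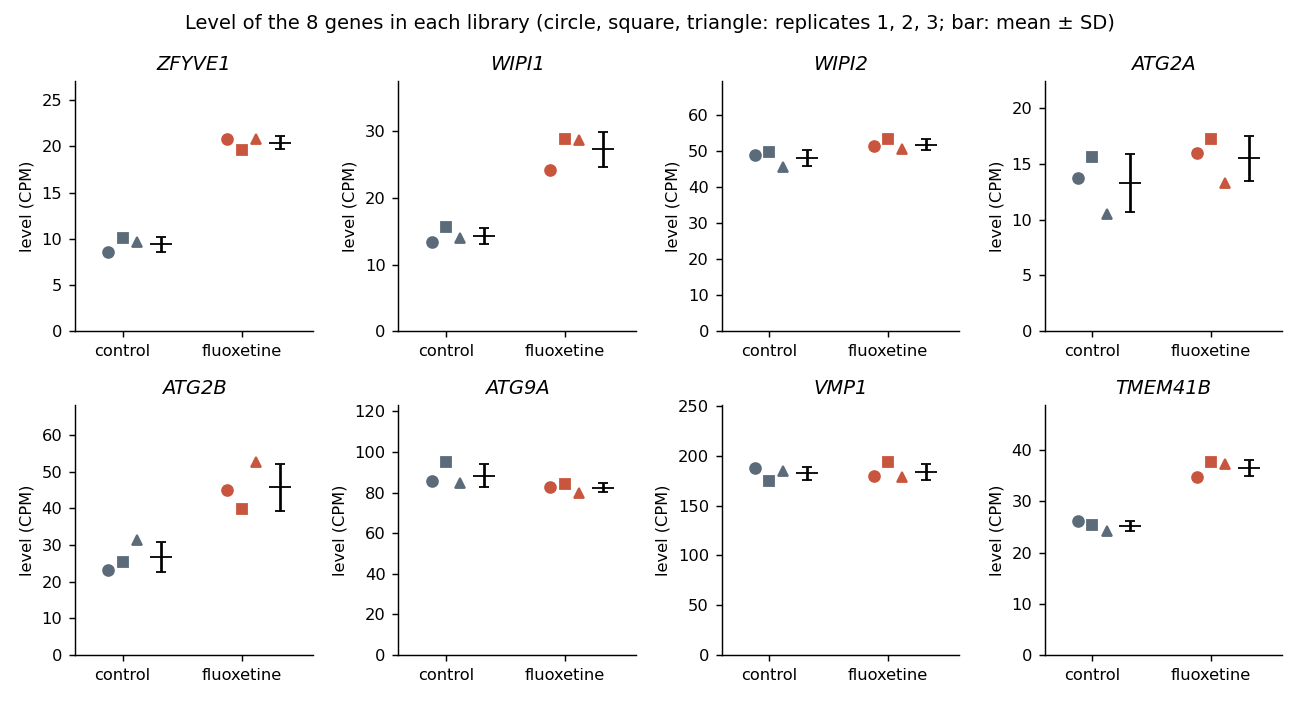
Level in CPM after normalization (vertical axis, from 0) of each gene in the control and fluoxetine libraries, with the mean and SD of each group as a bar (n = 3). The groups lie clearly apart for ZFYVE1, WIPI1, ATG2B and TMEM41B, are separated by under 1 CPM for WIPI2 and ATG9A, and overlap for ATG2A and VMP1.

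Of the lipid transfer genes, ATG2B rose and ATG2A did not pass the test. ATG2A and ATG2B encode paralogous rod-shaped proteins that carry phospholipids from the ER to the phagophore. ATG2B (ENSG00000066739, chromosome 14, 96279202 to 96363870, minus strand) had levels of 23.3, 25.3 and 31.2 CPM in the control libraries, and of 45.1, 39.7 and 52.5 CPM in the fluoxetine libraries. Replicate 3 was the highest library in both groups, and the groups stayed 8.44 CPM apart. Its rise was 0.78 on the log2 scale (standard error 0.14, 95% confidence interval 0.48 to 1.08, adjusted p = 0.00504 from edgeR). Its longest transcript is 13684 bases long with a GC content of 44.2%. With the trends of each library with GC content and transcript length removed, an alternative chosen after seeing the data, the log2 fold change was 0.54 (adjusted p = 9.70e-04 from edgeR). Exons of ATG2B share 419 bases, 2.84% of its exonic length, with GSKIP on the other strand, whose log2 change was -0.05 (edgeR, adjusted p = 0.776).

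ATG2A (ENSG00000110046, chromosome 11, 64894546 to 64917248, minus strand) had levels of 13.7, 15.6 and 10.5 CPM in the control libraries and of 15.97, 17.2 and 13.3 CPM in the fluoxetine libraries. Replicate 3 was the lowest library in both groups, and the groups overlapped. For ATG2A the log2 fold change was 0.23 (standard error 0.16, 95% confidence interval -0.13 to 0.59, adjusted p = 0.394 from edgeR). This was the widest interval of the 8 genes. The longest transcript of ATG2A has a GC content of 64.0% and a length of 6357 bases.

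ATG9A encodes the multispanning scramblase of the vesicles that seed the phagophore. ATG9A (ENSG00000198925, chromosome 2, 219209772 to 219229717, minus strand) had levels of 85.5, 94.9 and 84.6 CPM in the control libraries and of 82.7, 84.5 and 80.1 CPM in the fluoxetine libraries. The fluoxetine libraries lay below the control libraries, with 0.124 CPM between the groups. The change of ATG9A on the log2 scale was -0.10 (95% confidence interval -0.27 to 0.07, adjusted p = 0.445 from edgeR). A read-through gene on the same strand, AC068946.2, covers 1833 bases, 38.8%, of the exonic length of ATG9A in GENCODE release 29. It was not analysed here, and how reads of the shared part were counted is not given in the sources used here, so the level of ATG9A is uncertain.

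Of the ER scramblase genes, TMEM41B rose and VMP1 did not pass the test. VMP1 and TMEM41B encode ER membrane proteins with a related core domain, which scramble phospholipids and act in phagophore growth and release from the ER. TMEM41B (ENSG00000166471, chromosome 11, 9280654 to 9314780, minus strand) had levels of 26.1, 25.4 and 24.1 CPM in the control libraries and of 34.7, 37.6 and 37.3 CPM in the fluoxetine libraries. The groups were 8.60 CPM apart, with little spread inside either. TMEM41B rose by 0.54 on the log2 scale (standard error 0.09, 95% confidence interval 0.34 to 0.74, adjusted p = 0.00445 from edgeR), the smallest of the 4 rises.

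VMP1 (ENSG00000062716, chromosome 17, 59707192 to 59842255, plus strand) was the most abundant of the 8 genes. Its levels were 187, 175 and 185 CPM in the control libraries and 180, 193 and 179 CPM in the fluoxetine libraries. The groups overlapped over most of their range. Its log2 change was 0.01 (95% confidence interval -0.14 to 0.17, adjusted p = 0.924 from edgeR) and changed direction around 0 in 8 of 15 alternatives. Changes beyond 1.12-fold upward lie outside the interval. The hairpin of microRNA 21 lies in an exon of VMP1 on the same strand and shares 72 bases with it. PTRH2, on the other strand, shares 162 bases, 2.34% of the exonic length of VMP1, and changed by -0.06 on the log2 scale (edgeR, adjusted p = 0.690).

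The groups did not overlap for 6 of the 8 genes, which held for 31.9% of all genes tested. These were the 4 genes that rose, WIPI2 and ATG9A.

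Levels of different genes were compared per kb of exonic sequence, as CPM per kb. This length joins the exons of all annotated transcripts of a gene, whichever the cells made. It was 8977 bases for WIPI2, whose longest transcript has 4476, and 3402 for WIPI1, whose longest has 1886. For TMEM41B it was 4422 bases, with 3968 in the longest transcript. The order of genes with like levels, these among them, thus depends on the length used. In control cells VMP1, at 26.4 ± 0.952 CPM per kb (SD, n = 3), was followed by ATG9A at 18.7 ± 1.20 (SD, n = 3), and both stood above TMEM41B at 5.71, WIPI2 at 5.36 and WIPI1 at 4.22 CPM per kb. ATG2B, ZFYVE1 and ATG2A were lowest, at 1.80, 1.77 and 1.69 CPM per kb. The libraries of TMEM41B and WIPI2 overlapped in this order, as did those of ATG2B, ZFYVE1 and ATG2A. After fluoxetine treatment VMP1 and ATG9A kept the first places, at 26.6 and 17.4 CPM per kb. WIPI1, at 8.02 CPM per kb, then stood above WIPI2, at 5.77, without overlap, and overlapped with TMEM41B at 8.27. ZFYVE1, at 3.85 CPM per kb, stood above ATG2B at 3.09 and ATG2A at 1.97, and these levels no longer overlapped.

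To compare genes of like function directly, the ratio of their counts was taken within each library, where the scaling of the library cancels. Trends with GC content and length need not cancel in it, and they were not removed from the ratios. The ratio of WIPI1 to WIPI2 was 0.272, 0.315 and 0.307 in the control libraries and 0.471, 0.541 and 0.570 in the fluoxetine libraries. The groups did not overlap, and the mean log2 ratio went from -1.75 ± 0.112 (SD, n = 3) to -0.93 ± 0.143 (SD, n = 3), a 1.77-fold shift toward WIPI1. The 2-sided exact permutation test gave p = 0.1 (adjusted p = 0.150 over the 3 ratios tested), and 0.1 is the smallest p-value that 3 libraries against 3 allow.

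The ratio of VMP1 to TMEM41B was 7.17, 6.88 and 7.66 in the control libraries and 5.18, 5.14 and 4.80 in the fluoxetine libraries. The groups did not overlap either, with a mean log2 ratio of 2.85 ± 0.0782 (SD, n = 3) and 2.33 ± 0.0609 (SD, n = 3), a shift of -0.52 toward TMEM41B (exact permutation p = 0.1, adjusted p = 0.150).

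The ratio of ATG2A to ATG2B was 0.589, 0.617 and 0.336 in the control libraries and 0.354, 0.435 and 0.253 in the fluoxetine libraries. Control replicate 3 lay within the fluoxetine range, so here the groups overlapped. The mean log2 ratio was -1.01 ± 0.489 (SD, n = 3) in control and -1.56 ± 0.394 (SD, n = 3) in fluoxetine libraries, a shift of -0.55 (exact permutation p = 0.300, adjusted p = 0.300). Without control replicate 3 the shift was -0.83, and without fluoxetine replicate 3 it was -0.34. Only ATG2B passed the test against control, but this test of the ratio did not show that ATG2A and ATG2B differed in their change. Nor could it show this for the other pairs, given its smallest p-value.

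**Figure D3:**
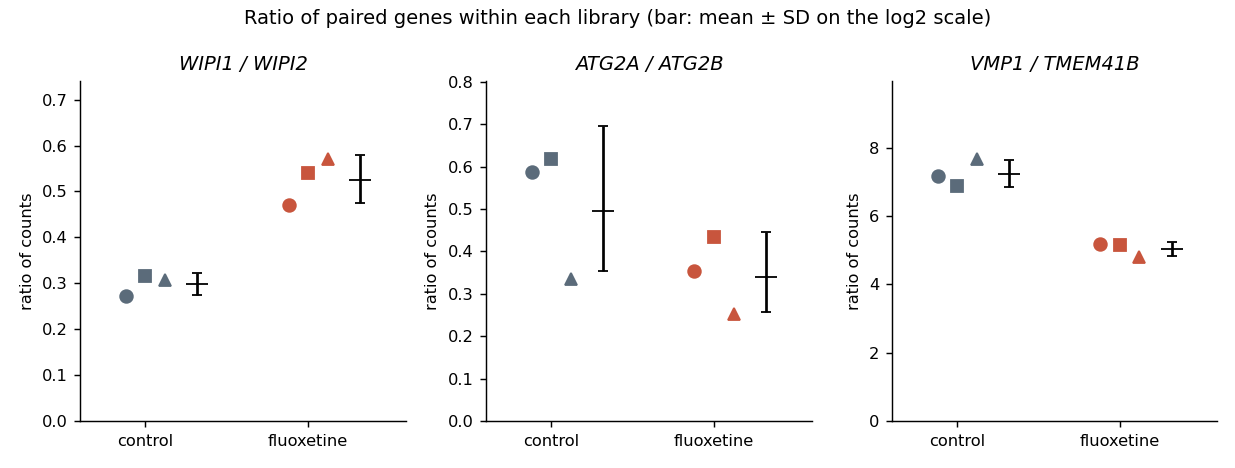
Ratio of the counts of paired genes within each library (vertical axis, from 0; circle, square and triangle stand for replicates 1, 2 and 3), with the mean and SD taken on the log2 scale as a bar (n = 3). The fluoxetine libraries lie apart from the control libraries for WIPI1 over WIPI2 and for VMP1 over TMEM41B, while control replicate 3, at 0.336, lies among the fluoxetine libraries for ATG2A over ATG2B.

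The deposited annotation placed 7 of the 8 genes in the KEGG pathway of animal autophagy, all but TMEM41B, and gave 7 of them the process term autophagosome assembly, all but ZFYVE1. Promoter windows from RefSeq (build GRCh38.p14, from 250 bases before to 50 after a start site) were found for all 8 genes, 10 windows in all. Of the 10 windows, 0 held any of 5 motifs searched on both strands. These were CACGTG (an E-box, in 7.26% of all 35116 windows), TCACGTGA (a CLEAR-type site, in 0.980%, which contains the E-box), TGATGNAAT (an ATF4-C/EBP composite site, in 0.991%), TCACNCCAC (a sterol regulatory element, in 1.13%) and GTAAACA (a forkhead site, in 3.42%). This says only that these letters are not in these windows.

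The 100 bases before the start site nearest to the deposited gene start are shown for the 4 genes that rose and for the paired genes that did not pass, so that both kinds can be read side by side. CG dinucleotides are in capitals. The 250 bases before these start sites held between 17 and 33 CG dinucleotides, and the genes that rose and the others shared this range. The median over all windows was 11, but these include start sites further from the gene start. At such further start sites, ZFYVE1 held 0 and WIPI2 held 5 CG dinucleotides. The WIPI1 window shows a run of repeated GC-rich units.
ZFYVE1 (chr14:73027107-73027206, minus strand): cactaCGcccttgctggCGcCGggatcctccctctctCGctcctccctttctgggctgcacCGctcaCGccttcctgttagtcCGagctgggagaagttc
WIPI1 (chr17:68457497-68457596, minus strand): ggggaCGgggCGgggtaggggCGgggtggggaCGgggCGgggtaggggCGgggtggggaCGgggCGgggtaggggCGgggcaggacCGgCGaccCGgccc
ATG2B (chr14:96363342-96363441, minus strand): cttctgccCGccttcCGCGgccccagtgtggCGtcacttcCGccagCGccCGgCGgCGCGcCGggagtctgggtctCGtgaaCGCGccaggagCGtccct
TMEM41B (chr11:9314594-9314693, minus strand): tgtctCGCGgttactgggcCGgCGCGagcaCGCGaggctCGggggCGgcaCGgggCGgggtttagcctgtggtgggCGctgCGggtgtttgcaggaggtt
WIPI2 (chr7:5190133-5190232, plus strand): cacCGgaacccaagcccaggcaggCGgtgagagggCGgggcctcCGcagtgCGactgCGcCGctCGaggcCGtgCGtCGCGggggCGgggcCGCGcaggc
ATG2A (chr11:64917210-64917309, minus strand): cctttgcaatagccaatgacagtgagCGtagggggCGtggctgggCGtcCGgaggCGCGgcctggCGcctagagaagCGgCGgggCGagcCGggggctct
VMP1 (chr17:59707554-59707653, plus strand): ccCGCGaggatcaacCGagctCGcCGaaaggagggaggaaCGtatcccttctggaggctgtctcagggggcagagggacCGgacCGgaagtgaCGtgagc

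To place the 8 genes within autophagosome formation, 43 further genes of the process were listed by role, of which 42 were tested. This list, too, was made with earlier results of these data known. Of these, 6 rose (14.3%, beside 7.76% of all genes tested) and 0 fell, and 0 changed at least 2-fold. Their median log2 fold change was 0.09. The count depended on single libraries, since 3 genes passed without control replicate 2, 2 without fluoxetine replicate 1, and 14 (11 higher and 3 lower) without control replicate 3.

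In the ULK complex, the kinase complex that starts autophagy, 3 of 5 genes rose. ULK1, which encodes the kinase itself, went from 83.0 ± 21.2 to 128 ± 15.0 CPM (SD, n = 3), a rise of 0.62 on the log2 scale (edgeR, adjusted p = 0.0353). RB1CC1, which encodes the scaffold FIP200, rose by 0.52 (adjusted p = 0.0209), and ULK2 by 0.43 (adjusted p = 0.0313), both on the log2 scale in the same edgeR test. ULK2 and RB1CC1 each lost their call in 4 and ULK1 in 3 of the 6 fits that left out 1 library, whereas ZFYVE1, WIPI1, ATG2B and TMEM41B kept theirs in all of them. ATG101, which encodes a further subunit of the complex, was lower after treatment without passing the test, at -0.39 on the log2 scale (edgeR, adjusted p = 0.108). It was called lower in 4 alternatives, namely without the filter (adjusted p = 0.0125), with the replicate block (0.00341), without control replicate 3 (0.00487) and after removal of trends with GC content and length (0.0155).

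In the PI3-kinase complexes that make PI3P, 1 of 8 genes rose, UVRAG, by 0.57 on the log2 scale (edgeR, adjusted p = 0.00778). UVRAG belongs to the complex that acts on endosomes. The genes of the kinase core and of its autophagy form did not pass, PIK3C3 at 0.28 (adjusted p = 0.0723), ATG14 at 0.33 (adjusted p = 0.0891) and BECN1 at -0.07 (adjusted p = 0.601 from edgeR). With the replicate block PIK3C3 and ATG14 passed (edgeR, adjusted p = 0.0189 and 0.0105). For ZFYVE1, WIPI1, ATG2B and TMEM41B, that fit also gave far lower p-values than the main fit. Without control replicate 3 both PIK3C3 and ATG14 lay just under the threshold (edgeR, adjusted p = 0.0499 and 0.0496). MTMR14, 1 of 2 genes listed as phosphatases that remove PI3P, rose by 0.49 on the log2 scale (adjusted p = 0.00891 from edgeR), and lost its call without fluoxetine replicate 1 (adjusted p = 0.0875).

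Of the paralogs of the 8 genes, 0 of 4 tested passed. WDR45B, which like WIPI1 and WIPI2 encodes a PI3P-binding WD-repeat protein, came closest at -0.24 on the log2 scale (edgeR, adjusted p = 0.0546) and fell in several alternatives, DESeq2 and RLE among them, and ATG9B was too low to be tested, with at most 0.156 CPM in a library. In the conjugation machinery that attaches LC3 to the phagophore, 0 of 10 genes passed, with log2 fold changes between -0.19 and 0.17. For so few genes this is near the share over all genes tested, of which 7.76% rose and 5.32% fell. Among 7 genes that act on ATG9 vesicles 0 passed, and among 6 listed for ER contact and related steps 1 rose. This was EPG5, at 0.93 on the log2 scale (edgeR, adjusted p = 0.00487), which is not an ER contact gene but encodes a tether that joins autophagosomes to late endosomes and lysosomes.

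**Figure D4:**
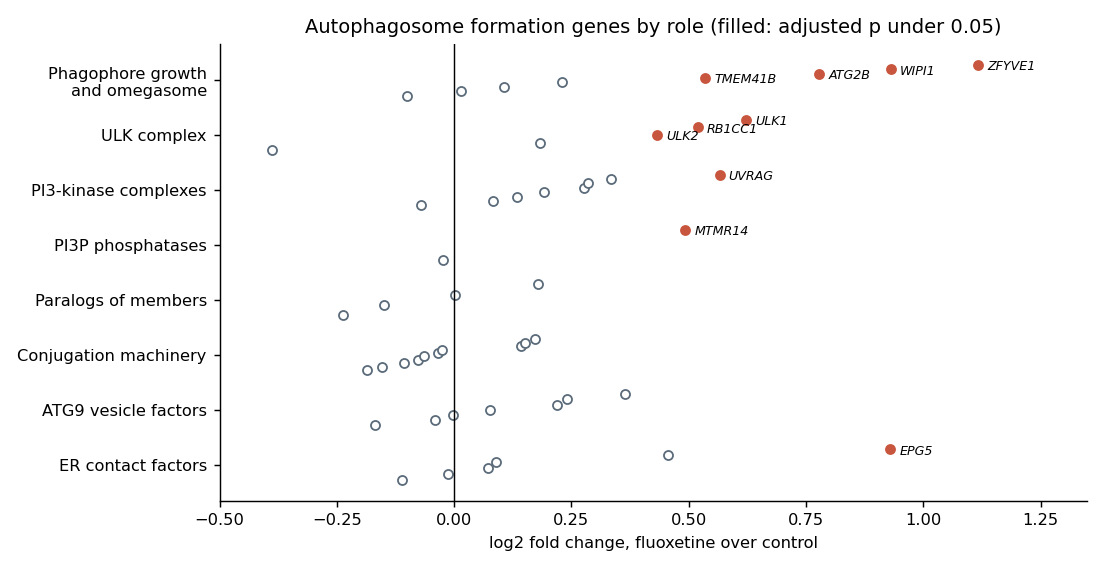
Log2 fold change of fluoxetine over control (horizontal axis) of each tested gene of autophagosome formation, by role. Filled red points are genes that rose (adjusted p-value under 0.05). They are 4 of the 8 phagophore growth and omegasome genes and 6 of 42 others, beside 7.76% of all genes tested.

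The genes whose pattern over the 6 libraries lay nearest to each gene that rose were found by the root mean square difference of log2 CPM, each gene centred on its own mean. Among the nearest to ZFYVE1 were BHLHE40, which encodes a transcriptional repressor, at a difference of 0.053, and the pseudogene MTX1P1, at a difference of 0.062, whose count is uncertain because it shares sequence with its parent gene. BHLHE40 itself had a log2 fold change of 1.15. WIPI1 was nearest to SWT1, to ATF3, which encodes a stress-induced transcription factor, and to BEX2. ATG2B was nearest to SLFN5, TMEM178B and GAS2L3, and TMEM41B to IFT140, STC2 and KIF3C. These neighbours were picked for likeness among 15646 genes and carry no test.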

How the data were processed

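RNA of H460 cells was sequenced by the authors as paired-end reads, in 3 control and 3 fluoxetine libraries. The submitters' processing notes list fastp 0.20.0, HISAT2 2.1.0, HTSeq 0.10.0 and DESeq2 1.18.1, and the genome build, annotation and strand setting are not given in the sources used here. The authors deposited raw counts of reads per gene and library, without normalization or pooling. Their own fold changes and p-values in the same table were not used. Gene positions were those of the table; 96.8% of the genes shared with GENCODE release 29 (GRCh38) matched it in both coordinates.

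The quasi-likelihood test of edgeR 4.0.16 was run on these counts in R 4.3.3 (glmQLFit and glmQLFTest, TMM, filterByExpr, no covariate, Benjamini-Hochberg over 15646 genes). CPM are after TMM, and SDs are over 3 libraries. At these depths 3 counts are worth 0.108 to 0.186 CPM, which covers counting error only. Exonic lengths were from GENCODE. Ratios were tested by exact permutation with SciPy 1.17.1. Alternatives were DESeq2 1.42.0, limma-voom (limma 3.58.1), RLE, library size only, no filter, a filter of 10 counts in each library, the replicate block, equal depth, an unadjusted p-value, leaving out each library and, chosen after seeing the data, removing trends with GC content and length (known for 99.7% of genes tested).

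The 8 genes, the lists and the motifs were chosen with earlier results of these data known. Named were the 8 genes, up to 4 called genes per direction and role, the 3 nearest genes of each called member, genes over their exons, and markers. Protein sequences were not used here. Some genes that this rule or the lists name are not reported here. Genes named that did not pass were chosen after their values were seen. On simulated counts edgeR recovered 177 of 198 genes planted at 2-fold among 15467 (89.4%), with 7 false calls, and called 0 where none was planted. The simulation gave all genes the same relative spread and held no trends with GC content or length. Its rates need not hold for the real counts or for changes under 2-fold.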

Additional observations from a re-analysis of the deposited data

How the results depend on the processing

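The calls of the 8 genes were the same under each of the 15 alternatives with their own fit, with 4 genes past the adjusted threshold and 1 of them at least 2-fold, and with an unadjusted p-value 4 passed as well. Among the called genes the highest adjusted p-value over these alternatives was 0.00416 for ZFYVE1, 0.00679 for WIPI1, 0.0436 for ATG2B and 0.0343 for TMEM41B, from edgeR with 1 library left out. VMP1, which did not pass in any fit, changed direction with DESeq2 (-0.016), RLE (-0.012), no filter (-0.021) and removal of the GC content and length trends (-0.075), and lay between -0.056 and 0.012 with each library left out. The count of related genes past the threshold, 6, was 10 without the filter, 12 at an unadjusted p-value, 10 after removal of those trends (6 higher and 4 lower), and 2 to 14 with each library left out. The 3 ratios kept their direction in the 8 alternatives run on them (the replicate block, equal depth and each library left out).

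Whether the replicate numbers mark pairs was not settled. Deviations of same-numbered libraries correlated at 0.030, 0.12 and 0.39. The last of these was the highest between any control and any fluoxetine library. Control replicate 1, however, correlated more with fluoxetine replicate 2 (0.32) than with fluoxetine replicate 1. With 3 libraries per group, each taken against its group mean, these correlations cannot decide it. With the replicate block, 4 of the 8 genes and 12 related genes passed. For the genes that rose, that fit gave far lower p-values than the main fit at nearly the same fold changes. The adjusted p from edgeR was 6.88e-18 for ZFYVE1 (log2 fold change 1.12) and 1.19e-11 for ULK1 (0.65). Without the filter it was 5.01e-12 for ZFYVE1. Passes in these 2 fits are thus not on a par with those of the main fit. The cause of these differences was not tested. With 3 libraries per group, the intervals of WIPI2, ATG9A and VMP1 leave small changes undetectable, and that of ATG2A, up to 0.59 on the log2 scale, includes a change as large as the called rise of TMEM41B (0.54).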
